A study of Mus musculus with 2 samples.

Results

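A group of 1413 cells from the dorsal cardiac base of newborn mice carried the secreted factor gene Gdf10 and the transcription factor genes Barx1 and Osr2 in pairs or all together. They were chosen from the dorsal library alone, among barcodes with at least 8000 UMIs (unique molecular identifiers, 1 for each captured transcript molecule) and at most 20% mitochondrial UMIs. A cell counted as a member when it had at least 1 UMI of at least 2 of these 3 genes and no UMI of the cartilage collagen genes Col10a1, Col9a1 and Col2a1. The members made up 15.8% of 8926 dorsal cells (95% Clopper-Pearson interval 15.1 to 16.6), out of 19575 cells in both libraries.

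Per the labels, the base of each heart was dissected from male and female C57Bl6 mice at 3 days of age and split into a dorsal and a ventral domain. Cells of 15 hearts were pooled, kept for 5 days in adherent culture and released with trypsin, so every group below consists of cells that attached and survived in culture. Dorsal tissue took in pulmonary veins, cardiac ganglia and the sinoatrial node, while ventral tissue took in the outflow tract base with pulmonary artery and proximal aorta. A single library was made per domain with 10x Genomics 3' chemistry, and no animal of origin was recorded for a cell. There is therefore no test between groups: values are descriptions of 1 dorsal and 1 ventral library, and every interval is a 95% interval for counting error alone.

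Fibroblasts of the chest organs carry transcription factors that record where their precursors lay, and Barx1 is known for its role in the mesenchyme of the embryonic stomach and lower oesophagus. Osr2 encodes a zinc finger factor of the odd-skipped family that acts in palate, tooth and joint mesenchyme. Gdf10, also called BMP3b, is a secreted protein of the TGF-beta superfamily, and Cdo1 encodes cysteine dioxygenase, the enzyme that opens cysteine breakdown and the route to taurine. Cdo1 was listed as a marker of these cells but was not part of the rule.

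On GRCm38, with the GENCODE M21 annotation, Gdf10 lies on the plus strand at chr14:33923587-33937983, Barx1 on the plus strand at chr13:48662998-48666507, and Osr2 on the plus strand at chr15:35296098-35303305. All 3 are annotated as protein-coding genes. The RefSeq promoters of Gdf10 and Barx1 (GRCm38.p6, plus strand, 250 bases before to 50 after the start) are shown because these genes define the cells. Capitals mark GC boxes, found by a search for GGGCGG on both strands. Overlapping matches run together in the capitals but are counted singly.
Gdf10, chr14:33923337-33923636: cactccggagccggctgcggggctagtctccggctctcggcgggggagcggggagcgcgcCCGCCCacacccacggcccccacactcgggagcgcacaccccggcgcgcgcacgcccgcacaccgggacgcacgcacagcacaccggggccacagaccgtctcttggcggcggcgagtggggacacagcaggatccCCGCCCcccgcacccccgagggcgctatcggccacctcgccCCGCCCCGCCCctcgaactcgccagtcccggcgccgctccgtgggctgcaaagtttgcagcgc
Barx1, chr13:48662786-48663085: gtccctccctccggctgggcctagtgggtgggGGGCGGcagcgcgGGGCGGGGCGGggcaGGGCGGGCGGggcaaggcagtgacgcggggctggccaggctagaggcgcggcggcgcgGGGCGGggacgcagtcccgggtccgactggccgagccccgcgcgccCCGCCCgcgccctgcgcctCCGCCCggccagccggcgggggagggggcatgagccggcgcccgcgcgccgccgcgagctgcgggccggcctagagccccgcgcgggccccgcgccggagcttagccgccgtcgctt
The Gdf10 window held 4 GC boxes and was 77.3% G or C, and the Barx1 window held 8 and was 84.7% G or C. Of all 32851 RefSeq mouse promoters of this length, 35.7% held at least 1 GC box, and the median was 52.7% G or C. The match is a description of the letters and was not tied to any measurement here.

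Members had a median of 19799 UMIs per cell (8054 to 119318) and 4105 genes, against 23443 UMIs and 4597 genes in the 7513 other dorsal cells. The median share of mitochondrial UMIs was 3.15% in members and 3.00% in other dorsal cells. Of the called barcodes, 22 occurred in both libraries, and 3 of these were members. Without them the share of members was 15.8% and Cdo1 kept a log2 ratio of 2.17. Barcodes marked as likely doublets made up 11% of members (155 cells) and 6.52% of other dorsal cells (490 cells), and their part in the results was not tested beyond the values without them given below.

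The label of fibroblast-like cells was set against 10 fibroblast markers. All 10 reached 20 CPM (UMIs of a gene per 1000000 UMIs of the group) in members and in other dorsal cells alike. Their sum was 13889 CPM in members and 14911 CPM in other dorsal cells, so they do not set the members apart. Col1a1 stood at 3181 CPM in members and 3239 CPM in other dorsal cells, and Pdgfra, a receptor gene of mesenchymal cells, at 124 and 118 CPM. Over the 10 markers the median log2 ratio of members over other dorsal cells was -0.06, next to -0.08 over all 5652 genes compared. A mesenchymal profile, meaning a UMI each of Pdgfra, Col1a1 and Col3a1 and none of the markers Ptprc, Pecam1, Sox10 and Upk3b, was found in 1141 members (80.8%). Ptprc, the pan-leukocyte gene, had a UMI in 10 members, the endothelial gene Pecam1 in 16, the glial gene Sox10 in 22 and the mesothelial gene Upk3b in 12. Summed over 10 markers each, members and other dorsal cells had 235 and 1006 CPM for macrophages, 33.2 and 86.0 CPM for endothelium, 15.9 and 94.2 CPM for glia, 32.2 and 115 CPM for mesothelium, and 722 and 1298 CPM for mural cells. The sums were 511 and 729 CPM for adipocytes, 110 and 919 CPM for cardiomyocytes, and 67.6 and 465 CPM for skeletal muscle. They were 3.87 and 26.3 CPM for neutrophils and T cells, and 6.89 and 3.77 CPM for epithelium. Of these lists, only the epithelial list had a higher sum in members, and that sum rested on very few cells. Of the members' UMIs, the top cell for each gene held 98.4% for Epcam, 99.0% for Krt17, 100% for Cldn4 and 94.4% for Cdh1. The epithelial sum was 0.363 CPM in members of cluster 4 and 0.188 CPM in members of cluster 5. It thus does not describe the bulk of the members. The cardiomyocyte gene Myh7, the mural gene Higd1b, the adipocyte genes Cidec and Lep and 4 of the 10 epithelial genes were at 0 in members. The part of these cell types in the results was not tested beyond the comparison that asks for the mesenchymal profile on both sides.

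The values that chose the members are given as a description. Gdf10 had a median of 7 UMIs per member (0 to 82), Barx1 a median of 1 (0 to 9) and Osr2 a median of 1 (0 to 11). Gdf10 was found without Osr2 but with Barx1 in 432 members (30.6%), with Osr2 but without Barx1 in 613 (43.4%), and with both in 320 (22.6%). The remaining 48 members (3.4%) had Barx1 and Osr2 without Gdf10. With medians of 1 UMI, a cell with 0 UMIs of Barx1 or Osr2 is not shown to lack the gene.

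As sums, Gdf10 stood at 396 CPM in members and 63.3 CPM in other dorsal cells, Barx1 at 54.4 and 3.6 CPM, and Osr2 at 56.7 and 3.37 CPM. After each cell was thinned to 8000 UMIs, 80.6% of members had a Gdf10 UMI, 34.3% a Barx1 UMI and 38.9% an Osr2 UMI. Free RNA sets a floor for such shares. In macrophage-like cluster 11, with a median of 43075 UMIs before thinning, the thinned shares were 12.7% for Gdf10, 1.52% for Barx1 and 1.02% for Osr2. In glial-like cluster 8, with a median of 12685 UMIs, they were 1.70%, 0.485% and 0.243%. Barcodes with at least 10 and under 100 UMIs in the dorsal library, which are close to empty droplets, gave 58.7 CPM for Gdf10, 5.76 CPM for Barx1 and 3.45 CPM for Osr2. All of these are below the members' values. The rule chose the members for UMIs of these genes, so that difference is no check on free RNA. The near-empty droplets were near the other dorsal cells' 63.3 CPM for Gdf10, 3.6 CPM for Barx1 and 3.37 CPM for Osr2.

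Cdo1, which the rule did not use, had a median of 5 UMIs per member (0 to 70) and a median of 0 (0 to 59) in other dorsal cells. Members had 310 CPM (304 to 316) and other dorsal cells 69.1 CPM (68.0 to 70.3), a log2 ratio of 2.17 (2.13 to 2.20). The thinned share of cells with a Cdo1 UMI was 70.8% (68.3 to 73.1) in members and 25.6% (24.7 to 26.6) in other dorsal cells. Near-empty droplets stood at 57.6 CPM, macrophage-like cluster 11 at 25.6 CPM with a thinned share of 10.7%, and glial-like cluster 8 at 3.34 CPM with a thinned share of 2.67%. Cdo1 was thus far above the free RNA level in members. Other clusters with few members reached similar levels. Cluster 10, with 84 members among 652 cells, had 294 CPM and a thinned share of 68.7%, the mural-like cluster 16, with 4 members among 131 cells, 275 CPM and 76.3%, and the mural-like cluster 15, with 2 members among 42 cells, 448 CPM and 90.5%.

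**Figure D1:**
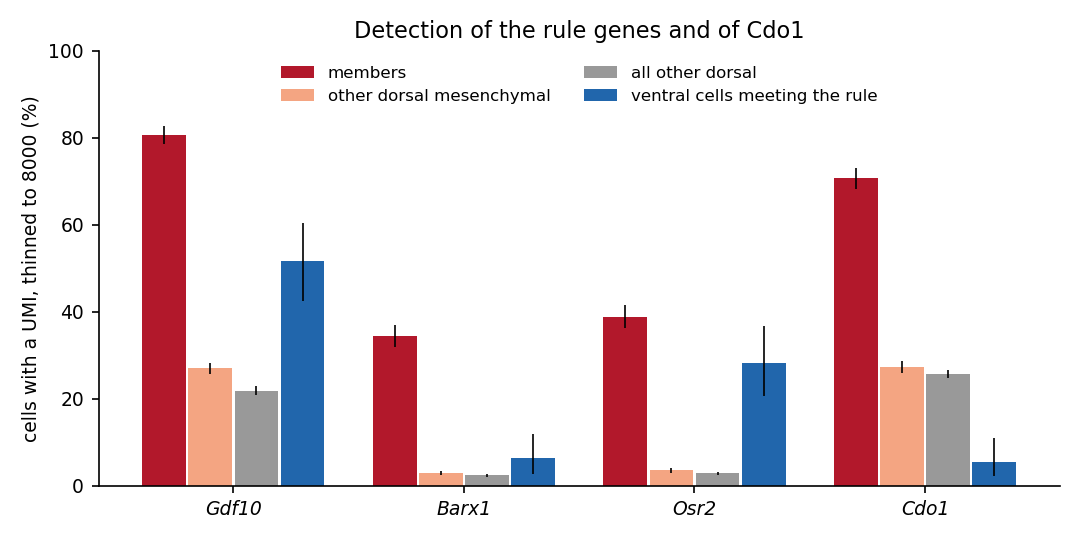
Percent of cells with at least 1 UMI after thinning each cell to 8000 UMIs, for the 3 genes of the rule and for Cdo1, in members, other dorsal mesenchymal cells, all other dorsal cells and ventral cells meeting the rule. Bars are shares and lines are 95% Clopper-Pearson intervals for counting error. Cdo1 was found in 70.8% of members, 27.3% of other dorsal mesenchymal cells, 25.6% of all other dorsal cells and 5.47% of ventral cells meeting the rule.

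The values just inside and just outside the rule are given without a test. The 126 members with 2 of the 3 genes at 1 UMI each had 87.8 CPM of Cdo1, the 2534 dorsal cells with 1 of the 3 genes had 96.5 CPM, and the 4292 cells with none had 39.3 CPM. Members with all 3 genes had 334 CPM. For Limch1, which encodes a regulator of actomyosin, the same 4 groups had 55.6, 38.0, 19.9 and 139 CPM. The 2534 cells could hold more than 1 UMI of their gene. The 1163 of them with 1 UMI had 51.7 CPM of Cdo1 and 24.4 CPM of Limch1. In Cdo1 the members just inside the rule were thus above these 1163 cells and close to all 2534. They were below the members with all 3 genes. Just above the depth limit, 8 members had 378 CPM of Cdo1, and just below it, 4 barcodes that met the other terms of the rule had 800 CPM.

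Dorsal cells were clustered without the 6 genes of the rule to see whether members lay together. Of 23 clusters, clusters 4 and 5 held 943 members, 66.7% of all, and 7.25% of the other dorsal cells. Members were 61.7% of the 1001 cells of cluster 4 and 66.7% of the 487 cells of cluster 5. The other members were spread over 19 clusters, with 84 in cluster 10, led by the matrix protease genes Mmp13 and Mmp3, 76 in cluster 6, led by Shisa3 and Clca3a2, and 61 in cluster 1, led by Igfbp3. Clusters 8 and 20 held none. The share in clusters 4 and 5 was 79.1% for members with all 3 genes, 66.9% with Gdf10 and Barx1, 62.3% with Gdf10 and Osr2, and 39.6% with Barx1 and Osr2. It was 16.5% for dorsal cells with Gdf10 alone and 1.47% for cells with none of the 3.

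**Figure D2:**
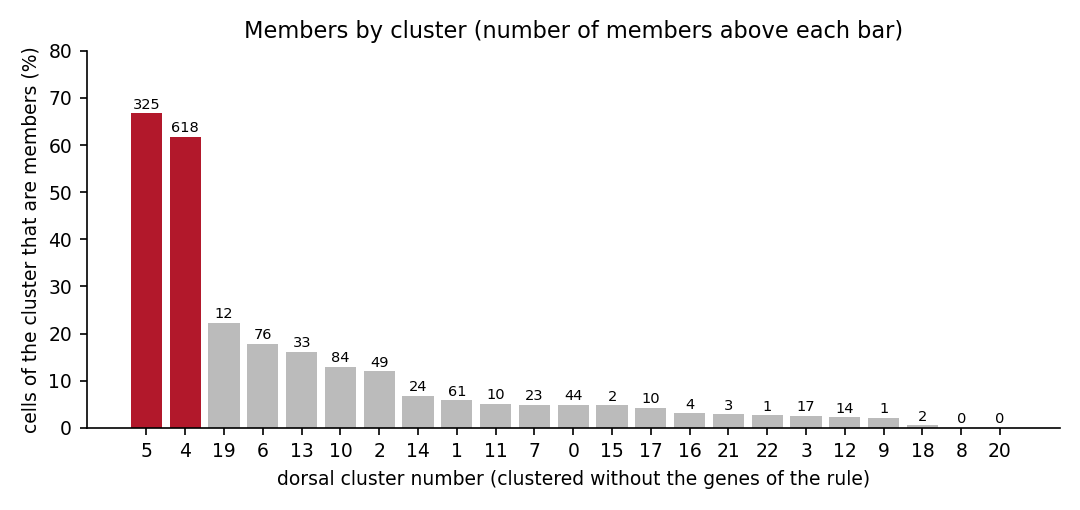
Percent of the cells of each dorsal cluster that were members, with the number of members above each bar and clusters ordered by that percent. Clusters 4 and 5, drawn in red, were 61.7% and 66.7% members, and cluster 19, the next in order, was 22.2%.

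Over all members, 65 of 5652 genes at 20 CPM or more in either sum were at least 2-fold higher than in other dorsal cells (1.15%), and 115 were at least 2-fold lower (2.03%). With TMM scaling, which moved all log2 ratios up by 0.11, the split was 87 higher and 99 lower. Leaving out the rule genes, 62 were higher, and all 62 were also higher both among cells with Xist and no Y-linked UMI (61 at least 2-fold) and among cells with a Y-linked UMI and no Xist (59 at least 2-fold). These 2 groups of cells held 628 and 556 members. The list was chosen on these same cells, so neither its length nor its direction within the 2 groups is independent support.

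The genes highest in members over other dorsal cells are named with their roles. Nell2, a secreted protein with thrombospondin-like domains, had 22.3 CPM in members and 4.42 CPM in other dorsal cells, a log2 ratio of 2.34 (2.19 to 2.48). Limch1 had 131 CPM in members and 27.7 CPM in other dorsal cells (log2 2.24, 2.18 to 2.30). Prss35, an inactive relative of serine proteases, had 78.2 and 17.6 CPM (log2 2.15, 2.08 to 2.23). Il1rn, the interleukin-1 receptor antagonist, had 27.8 and 6.51 CPM (log2 2.09, 1.97 to 2.22). After thinning, Nell2 was found in 15.1% of members and 3.25% of other dorsal cells, Il1rn in 12.7% and 2.98%, and Limch1 in 47.4% and 14.4%, shares that also follow each gene's level.

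The rest of the 15 leading genes had log2 ratios of 1.56 to 1.78. They included the growth factor gene Fgf18 (38.3 CPM in members, 11.1 CPM in other dorsal cells), the mesenchymal homeobox gene Prrx2 (86.2 and 25.5 CPM) and the zinc finger gene Mecom (56.0 and 16.7 CPM). Ednra, the endothelin A receptor, had 58.5 and 17.9 CPM, and Ltbp2, a microfibril protein, 239 and 75.6 CPM. Hmcn1, a basement membrane protein, had 83.2 and 27.6 CPM, and Cemip, which takes part in hyaluronan breakdown, 234 and 79.2 CPM. Pdk4, an inhibitor of pyruvate dehydrogenase, Tmem178 and the secreted protein gene Ism1 completed the list.

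**Figure D3:**
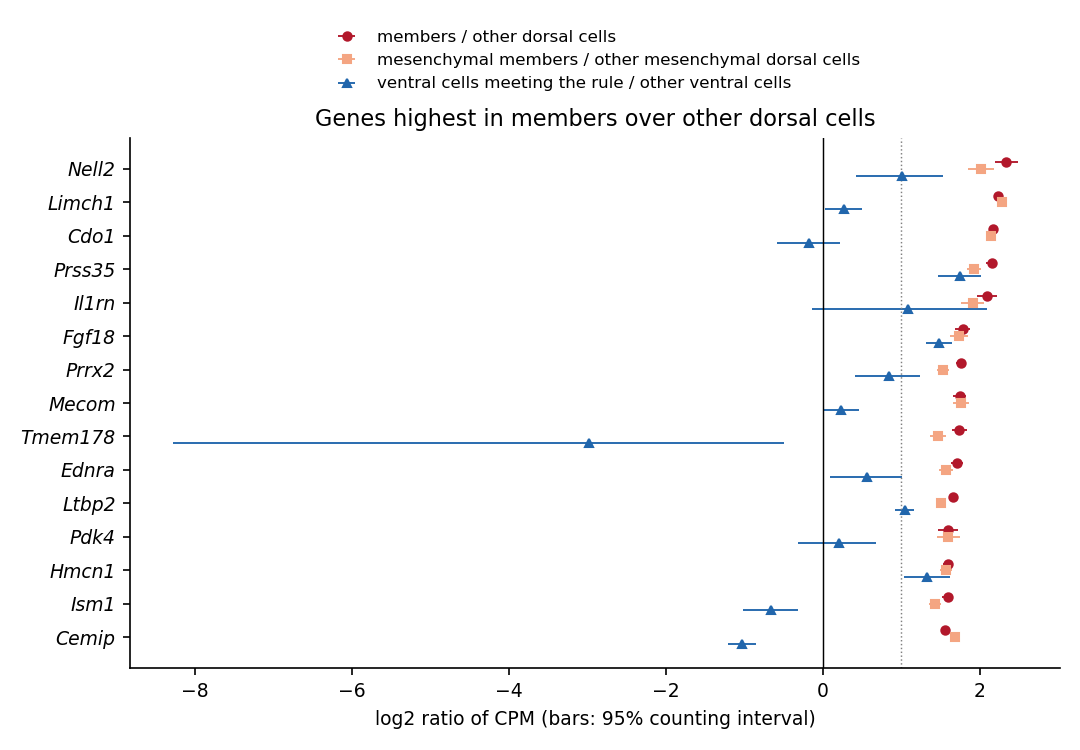
Log2 ratio of CPM for the 15 genes highest in members over other dorsal cells, shown for members over other dorsal cells, mesenchymal members over other mesenchymal dorsal cells, and ventral cells meeting the rule over other ventral cells. Lines are 95% counting intervals, and the dotted line marks 2-fold. All 15 were above 2-fold in both dorsal comparisons, while Cemip had a ventral log2 ratio of -1.02.

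Among the genes lowest in members over other dorsal cells were genes of heart muscle, skeletal muscle and macrophages. Des was also a leading gene of the mural-like cluster 16, and Ankrd1 of cluster 0. Their thinned shares were 5.87% of members and 15.6% of other dorsal cells for Des, and 3.18% and 8.53% for Ankrd1. Nppa, the atrial natriuretic peptide gene, had 17.3 CPM in members and 460 CPM in other dorsal cells (log2 -4.73). After thinning, 9.13% of members and 9.81% of other dorsal cells had an Nppa UMI, so the summed ratio does not describe the typical cell. The muscle genes Tnnc2, Acta1, Sln, Tnni2, Ankrd1, Myl1, Des and Myl7 were 2.80 to 3.70 lower on the log2 scale, and the macrophage gene Marco 3.03 lower. Of 10 cardiomyocyte markers, 6 reached 20 CPM and all 6 were at least 2-fold lower, against 2.03% of all genes. Clusters 9, 22 and 11, named by their markers as cardiomyocyte-like, skeletal muscle-like and macrophage-like, held 1, 1 and 10 members.

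A closer comparison used 4634 other dorsal cells with the mesenchymal profile. Against them, 64 of 5524 genes were at least 2-fold higher in members (1.16%) and 43 at least 2-fold lower (0.778%). The balance depended on the setting, with 74 higher and 73 lower without likely doublets, 64 and 83 with all 3 genes required, 80 and 87 with 2 UMIs each, 72 and 69 among cells with Xist and no Y-linked UMI, and 62 and 76 by the mean of per-cell CPM. The highest were macrophage genes, led by Ccl12 at 21.2 CPM in members and 1.26 CPM in the mesenchymal cells, and 10 members carried 94.2% of its UMIs. The chemokine gene Pf4 and the signalling adaptor gene Fcer1g had 94.1% and 90.6% of their UMIs in 10 members each. The comparison cells had been freed of cells with Ptprc and the members had not, so these genes do not describe the bulk of the members. With the mesenchymal profile asked of both sides, 60 of 5525 genes were higher (1.09%) and 48 lower (0.869%), and none of the 10 macrophage markers was 2-fold higher.

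In that matched comparison the leading genes were again Limch1 (137 CPM in mesenchymal members, 28.2 CPM in other mesenchymal cells, log2 2.28), Cdo1 (320 and 72.7 CPM, log2 2.14), Nell2 (22.6 and 5.58 CPM, log2 2.02) and Prss35 (77.5 and 20.4 CPM, log2 1.93). Igfbp2, which binds insulin-like growth factors, came in at 118 and 35.4 CPM (log2 1.74). Eln, the gene of elastin, stood at 6373 and 2004 CPM (log2 1.67, 1.66 to 1.68). Of the 62 genes higher in members over all other dorsal cells, 49 were also at least 2-fold higher here.

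The 10 lowest genes in the matched comparison included Msln and Scg2, which led the mesothelial-like cluster 12, and Calca, which led cluster 18. Nppa and Ankrd1 were among the leading genes of the cardiomyocyte-like cluster 9 (46 cells), and Ankrd1 also of cluster 0 (913 cells). Pdlim3, a leading gene of clusters 0 and 3, had 22.9 CPM in mesenchymal members and 80.5 CPM in other mesenchymal cells, with thinned shares of 7.27% and 23.5%. Gucy1a3, a leading gene of cluster 3, had 58.5 and 190 CPM, with thinned shares of 20.4% and 42.6%. Msln, the gene of mesothelin, had 4.85 CPM in mesenchymal members and 20.6 CPM in other mesenchymal cells (log2 -2.09), and Nppa 16.8 and 61.6 CPM (log2 -1.88). The thinned shares of cells with an Nppa UMI were close, at 8.94% and 9.15%, so the summed Nppa ratio does not describe the typical cell. Mmp13, a collagenase, had 3.70 CPM in mesenchymal members and 23.8 CPM in other mesenchymal cells (log2 -2.68). Calca, the calcitonin and CGRP gene, had 5.19 and 28.1 CPM (log2 -2.44), and Scg2, a secretory granule protein, 4.85 and 28.9 CPM (log2 -2.58). The acute phase gene Saa3 was lower at 1883 and 5429 CPM, and over all members it had a log2 ratio of -1.59 against the mesenchymal cells. The transcription regulator gene Ankrd1 had 10.0 and 49.8 CPM (log2 -2.31).

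Transcription factors of foregut and airway mesenchyme were examined as a list of 28 genes, of which 10 outside the rule reached 20 CPM. Of these 10, Tbx3 and Foxf1 were at least 2-fold higher in members than in other dorsal cells, and none was 2-fold lower. Over all genes the shares were 1.15% higher and 2.03% lower. The median log2 ratio of the 10 was 0.26, against -0.08 over all genes. Foxf1, a forkhead factor of gut and lung mesenchyme, had 43.0 CPM in members, 20.1 CPM in other dorsal mesenchymal cells and 18.1 CPM in all other dorsal cells. Tbx3 had 34.4 CPM in members, 16.9 CPM in mesenchymal and 15.5 CPM in all other dorsal cells. Osr1, the close relative of Osr2, had 64.6 CPM in members and 85.8 CPM in other dorsal cells.

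Several low factors lay below the 20 CPM limit and are given as values. Tbx4, a T-box factor of lung and limb mesenchyme, had 13.1 CPM in members and 1.77 CPM in other dorsal cells (log2 2.89, 2.68 to 3.10), with a thinned share of 11.5% of members and 1.89% of other dorsal cells. Near-empty droplets gave 4.60 CPM for Tbx4. Tbx5 stood at 10.2 and 5.33 CPM, and Tbx2 at 13.2 and 4.59 CPM. The epicardial factor Wt1 was lower, at 3.66 CPM in members and 18.5 CPM in other dorsal cells (log2 -2.34), as were the cardiac factors Gata4 (2.23 and 7.92 CPM, log2 -1.83) and Tbx20 (2.65 and 9.74 CPM, log2 -1.88). Isl1, the factor in the title of the study, had 1.52 CPM in members and 1.09 CPM in other dorsal cells.

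**Figure D4:**
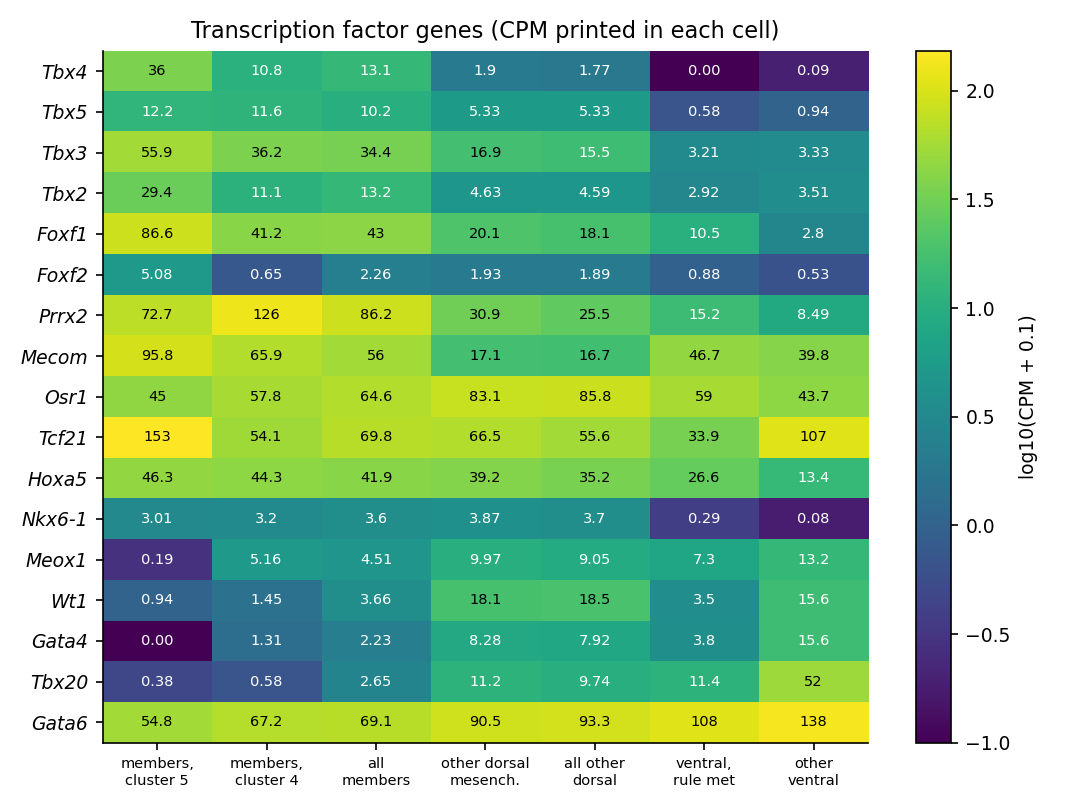
CPM of 17 transcription factor genes in 7 groups of cells, from members in cluster 5 at the left to other ventral cells at the right, printed in each box and coloured by log10 of CPM + 0.1. Tbx4 stood at 36.0 CPM in cluster 5 members, 10.8 CPM in cluster 4 members and 1.77 CPM in all other dorsal cells, and Wt1, Gata4 and Tbx20 were lower in members than in all other dorsal cells.

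Among the 17 TGF-beta superfamily ligands, 7 outside the rule reached 20 CPM, and 1 of these, Bmp3, was at least 2-fold higher, against 1.15% of all genes (37.2 CPM in members, 18.2 CPM in other dorsal cells, log2 1.03). Bmp3 is the ligand most like Gdf10. None of 8 receptors at 20 CPM differed 2-fold, with Bmpr2 at 58.3 CPM in members and 62.6 CPM in other dorsal cells. Of 6 genes at 20 CPM in the list of antagonists, Fst, the gene of follistatin, had 77.1 and 33.3 CPM (log2 1.21). The proteoglycan gene Gpc3 had 411 and 181 CPM (log2 1.18). Grem1, a BMP antagonist, had 62.5 and 65.5 CPM.

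Hedgehog signals reach cells through the receptor Ptch1, helped by the co-receptors Boc, Cdon and Gas1 and held back by the binding protein Hhip. Of 4 genes of this list at 20 CPM, 1, Boc, was at least 2-fold higher in members, against 1.15% of all genes (67.3 CPM, against 25 CPM in other dorsal cells, log2 1.43). Hhip, below the limit, had 6.52 and 1.08 CPM (log2 2.59, 2.31 to 2.87). Ptch1 and Gli1 were low in both groups: Ptch1 stood at 5.82 and 5.32 CPM, and Gli1 at 0.274 and 0.219 CPM. Cdon had 40.1 and 23.0 CPM, and Gas1 162 and 138 CPM.

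In the FGF list, Fgf18 was at least 2-fold higher in members, while the feedback genes Spry1 (55.0 CPM in members, 64.2 CPM in other dorsal cells) and Dusp6 (12.4 and 14.7 CPM) were not. Fgf7, a ligand for epithelial receptors, had 168 and 89.7 CPM (log2 0.91), and Fgf10, another, 6.10 and 1.66 CPM. Among 10 genes of the insulin-like growth factor list, Igfbp4 was 2-fold higher, at 1471 and 565 CPM (log2 1.38). Over all genes, 1.15% were 2-fold higher and 2.03% lower. Rspo3, a Wnt agonist, had 348 and 174 CPM (log2 1.0), which was under 2-fold against the mesenchymal cells (201 CPM, log2 0.80). Of 3 retinoic acid genes at 20 CPM, Aldh1a1, which makes retinoic acid, was lower at 15.3 and 47.5 CPM (log2 -1.63), and Cyp26b1, which degrades it, stood at 14.9 and 3.67 CPM.

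Of 9 sulfur amino acid genes at 20 CPM, Cdo1 alone was 2-fold higher, against 1.15% of all genes. Csad, the next enzyme on the route to taurine, had 47.5 CPM in members and 36.9 CPM in other dorsal cells (log2 0.36). Slc6a6, the taurine transporter, was lower at 9.45 and 22.0 CPM (log2 -1.22), but not against the mesenchymal cells, at 8.43 CPM. The list as a whole had a median log2 ratio of -0.12 against -0.08 over all genes.

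The elastin gene was among 26 matrix glycoprotein and proteoglycan genes at 20 CPM. Of these, Eln, Ogn and Abi3bp were at least 2-fold higher and none lower, and the median log2 ratio of the 26 was 0.47. Over all genes, 1.15% were 2-fold higher and 2.03% lower. Eln had 6485 CPM in members and 2315 CPM in other dorsal cells (log2 1.49), and was found in 98.7% of thinned members and 85.9% of other dorsal cells. Near-empty droplets gave 6832 CPM for Eln, so a share of cells with an Eln UMI is not read as expression here. Mgp, the matrix Gla protein gene, had 27068 and 9895 CPM (log2 1.45). Of 16 collagen genes at 20 CPM, none was 2-fold higher, and Col18a1 was lower at 32.5 and 82.6 CPM.

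Set against the 1.15% of all genes higher and 2.03% lower, of 10 contractile genes at 20 CPM, Acta2, Tagln, Myh11, Cnn1, Des and Actg2 were at least 2-fold lower in members than in other dorsal cells, and Itga8 was higher (54.5 CPM in members, 26.0 CPM in other dorsal cells). Against the mesenchymal cells, Des and Actg2 stayed 2-fold lower, while Acta2, the smooth muscle actin gene, had 417 CPM in members and 605 CPM in mesenchymal cells (log2 -0.54). Of the guidance and neurotrophic genes, Nrp2, a semaphorin co-receptor, had 96.0 CPM in members and 43.6 CPM in other dorsal cells. Cells with at least 5 of 18 cell cycle genes after thinning were 2.55% of members (1.79 to 3.51) and 3.43% of other dorsal cells (3.03 to 3.87).

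Members were also set against 3 further dorsal groups defined by UMIs of named genes, and their nearness to the members was not measured. Against 976 non-members with Tnfsf8 and Il33, 90 of 5522 genes were 2-fold higher in members (1.63%) and 58 lower (1.05%). Cdo1 had 310 CPM in members and 41.5 CPM in those cells (log2 2.90), the carboxypeptidase-like gene Cpxm2 92.8 and 12.7 CPM (log2 2.87), and Cemip 234 and 34.3 CPM (log2 2.77). The B cell chemokine gene Cxcl13 was lower at 84.5 and 418 CPM (log2 -2.31). The groups share cells in part of their definition: 239 members (16.9%) had both Tnfsf8 and Il33.

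Against 269 non-members with Grem1 and Nkx6-1, 114 of 5626 genes were 2-fold higher in members (2.03%) and 165 lower (2.93%). Mecom had 56.0 CPM in members and 6.56 CPM in those cells (log2 3.09), and Angpt2, an angiopoietin gene, 47.1 and 8.42 CPM (log2 2.48). The smooth muscle genes Actg2 (10.2 and 540 CPM, log2 -5.73), Des (15.1 and 503 CPM) and Cnn1 (11.1 and 357 CPM) and the BMP antagonist gene Nog (0.610 and 24.7 CPM) were lower. Cdo1 was less far apart here, at 310 and 190 CPM. Of the members, 34 (2.41%) had both Grem1 and Nkx6-1.

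Of these 3 groups, the fewest genes were 2-fold apart from the 166 dorsal cells with at least 2 of the rule genes that were left out for a cartilage collagen UMI. Of 5602 genes, 22 were 2-fold higher in members (0.393%) and 75 lower (1.34%). Cdo1 had 310 CPM in members and 288 CPM in those cells, and Foxf1 43.0 and 40.3 CPM. Mfap5, a microfibril gene, was higher in members at 450 and 148 CPM (log2 1.60), and Igfbp6 at 84.8 and 24.9 CPM (log2 1.77). The genes Mmp13 (3.38 and 129 CPM, log2 -5.26), Spp1, osteopontin (203 and 2163 CPM, log2 -3.42), and Omd, a bone proteoglycan (5.4 and 36.2 CPM, log2 -2.75), were lower. Arg1 (9.36 and 100 CPM) and Marco (7.35 and 67.3 CPM), leading genes of the macrophage-like cluster 11, were also among the 4 lowest. The thinned shares for Marco were close, at 2.26% of members and 2.41% of those cells, so its summed ratio does not describe the typical cell. Arg1 was found in 3.61% of those cells after thinning. Mylpf and Myl4, also among the higher genes, rest on few cells, with 80.1% and 73.3% of their UMIs in 10 members.

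Within the members, clusters 5 and 4 held 2 groups of 325 and 618 cells, with medians of 15688 and 20564 UMIs. Of 5377 genes, 115 were at least 2-fold higher in cluster 5 members than in cluster 4 members (2.14%) and 73 lower (1.36%), although both met the same rule. Since the clusters were drawn from these genes, the list is a description. Likely doublets were 2 of the cluster 5 members and 36 of the cluster 4 members.

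Spon1, a secreted matrix protein also called F-spondin, had 177 CPM in cluster 5 members and 14 CPM in cluster 4 members (log2 3.67, 3.44 to 3.90). Col13a1, a transmembrane collagen, had 24.3 and 2.47 CPM (log2 3.30), and the myosin phosphatase inhibitor gene Ppp1r14a 255 and 33.7 CPM (log2 2.92). Ednra had 159 and 42.4 CPM (log2 1.91), and Eln 12716 and 6664 CPM (log2 0.93). The Wnt modulator gene Sfrp2 had 238 and 47.1 CPM (log2 2.33), and the lipid phosphatase gene Plpp3 730 and 193 CPM (log2 1.92). Cdo1 was at 680 and 345 CPM (log2 0.98).

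The foregut and airway list differed between the groups as well. Tbx4 (36.0 CPM in cluster 5 members, 10.8 CPM in cluster 4 members, log2 1.74), Tbx2 (29.4 and 11.1 CPM, log2 1.40), Foxf1 (86.6 and 41.2 CPM, log2 1.07) and Tcf21 (153 and 54.1 CPM, log2 1.5) were higher. Foxp2 was lower at 17.7 and 59.2 CPM (log2 -1.74). Of the rule genes, which did not enter the clustering, Osr2 had 129 and 49.9 CPM (log2 1.37), Barx1 47.1 and 76.0 CPM (log2 -0.69) and Gdf10 609 and 476 CPM (log2 0.36). Of members with Gdf10 and Osr2, 34.3% lay in cluster 5 and 28.1% in cluster 4, and of members with Gdf10 and Barx1, 11.1% and 55.8%.

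Genes lower in cluster 5 members included imprinted, matrix and secreted-factor genes. H19, an imprinted noncoding RNA, had 46.9 CPM in cluster 5 members and 369 CPM in cluster 4 members (log2 -2.98). Its neighbour Igf2, insulin-like growth factor 2, had 78.5 and 291 CPM (log2 -1.89), and Dlk1, another imprinted gene, 13.2 and 105 CPM (log2 -2.99). Postn, the matrix protein periostin, had 50.7 and 427 CPM (log2 -3.08), and Il1rn 8.10 and 48.7 CPM (log2 -2.59). Egfl6, a basement membrane protein, had 1.69 and 27.6 CPM (log2 -4.03), and Cyp26b1 4.90 and 26.1 CPM (log2 -2.41). Cxcl13, with the lowest ratio of the genes compared, stood at 3.20 and 78.0 CPM (log2 -4.61), and 67.3% of its UMIs over all members lay in 10 cells.

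**Figure D5:**
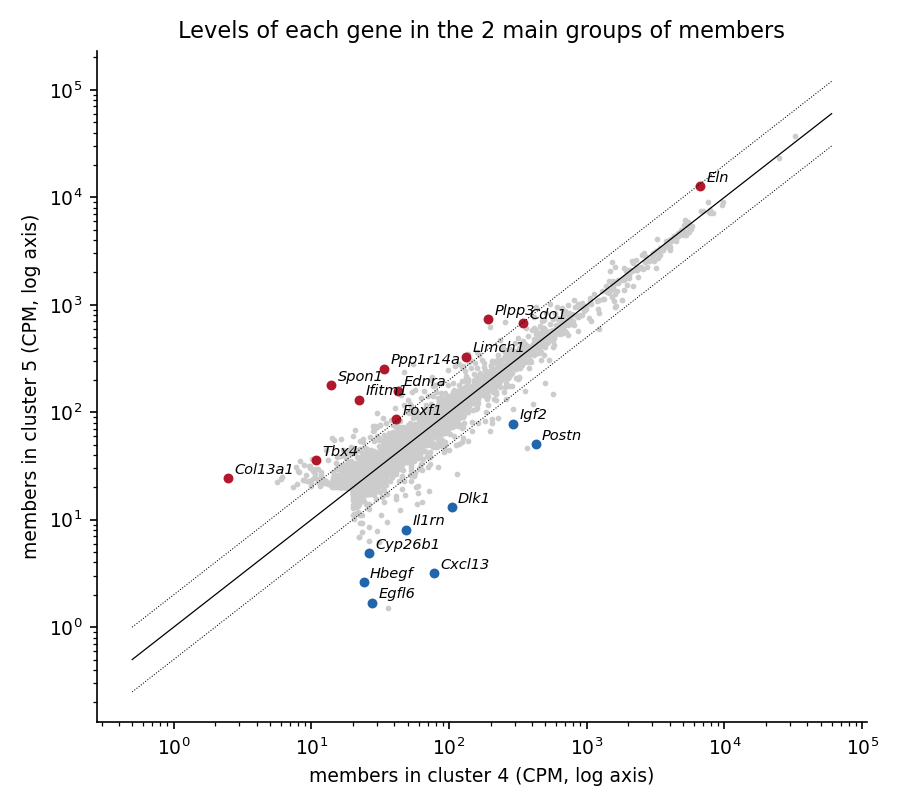
CPM of each gene in members of cluster 5 (vertical, log axis) against members of cluster 4 (horizontal, log axis), for genes at 20 CPM or more in either, drawn at no less than 0.5 CPM. The solid line marks equal levels and the dotted lines 2-fold. Named genes higher in cluster 5, such as Spon1 at 177 against 14 CPM, are red, and those lower, such as Postn at 50.7 against 427 CPM, are blue.

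Setting members with Osr2 but no Barx1 UMI against members with Barx1 but no Osr2 UMI gave fewer differences, with 17 of 5413 genes 2-fold higher (0.314%) and 14 lower (0.259%). Spon1 had 70.4 CPM with Osr2 and 24.5 CPM with Barx1 (log2 1.52), Sfrp2 231 and 74.4 CPM (log2 1.63), and Bmp4 47.0 and 22.8 CPM (log2 1.04). Egfl6 was lower at 6.66 and 21.7 CPM (log2 -1.71), as were Il1rn (11.5 and 34.1 CPM) and Cyp26b1 (7.69 and 20.3 CPM). These genes were chosen after their values were seen, and the cells are shared with the comparison of clusters 5 and 4. Krt8, at 0.740 and 26.4 CPM, had 90.6% of its UMIs in 1 member.

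Clustering the members alone gave 10 subclusters. Subcluster 0 (315 cells) was led by Il1rn, Egfl6 and Cyp26b1, subcluster 2 (229 cells) by Itga8, Lmcd1 and Igfbp2, with Eln at 12887 CPM against 5408 CPM in other members, and subcluster 5 (242 cells) by Ifitm1 and Spon1. Between 95.6% and 100% of these 3 lay in clusters 4 and 5. Subcluster 4 (90 cells) was led by Mmp3 and Dio2, with Mmp3 at 1492 CPM against 119 CPM in other members, and had 997 CPM of Gdf10. Subcluster 1 (36 cells) was led by the cell cycle genes Ube2c and Top2a.

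Subcluster 3, the most numerous with 393 cells, was led by Lpl and Cxcl13. It had Col1a1 at 4008 CPM, Cdo1 at 114 CPM and Gdf10 at 169 CPM. It held 98 of the 155 likely doublets, and 37.2% of its cells lay in clusters 4 and 5. Small groups carried genes of other cell types: subcluster 6 (10 cells) macrophage genes such as Ccl6 and Pf4, subcluster 7 (51 cells) Cxcl15, Frzb and the pericyte gene Rgs5, subcluster 8 (35 cells) muscle genes such as Mylpf and Myog, and subcluster 9 (12 cells) the glial genes Gap43 and Ngfr. All 12 cells of subcluster 9 and 6 of the 10 cells of subcluster 6 were among the likely doublets. The part of doublets in these small groups was not tested further.

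The same rule was met by 128 of 10649 ventral cells, 1.2% (1.0 to 1.43), and by 70 of them with the mesenchymal profile. In these cells Gdf10 had a median of 2 UMIs (0 to 13), Osr2 a median of 1 (0 to 4), and Barx1 a median of 0 (0 to 6), since 111 of the 128 had no Barx1 UMI. Ventral cells meeting the rule had 44.1 CPM of Osr2 and 9.34 CPM of Barx1, against 1.67 and 0.336 CPM in other ventral cells. The pair behind the rule was thus mostly Gdf10 and Osr2 in the ventral library, and the libraries' shares of all 3 genes together were 3.59% of dorsal and 0.0188% of ventral cells (2 cells).

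Cdo1 stood at 15.8 CPM in ventral cells meeting the rule and 17.8 CPM in other ventral cells (log2 -0.17, -0.59 to 0.21), so the fourth marker did not accompany the rule there. Of 5533 genes, 52 were 2-fold higher in ventral cells meeting the rule than in other ventral cells (0.940%) and 106 lower (1.92%). Leaving out rule genes, 10 genes were on both the dorsal and the ventral list, 16.1% of the 62 dorsal and 20% of the 50 ventral genes. These were Hmcn1, Agtr2, Rspo3, Prss35, Fgf18, Igfbp4, Phactr1, Fst, Ltbp2 and Boc. Agtr2, the angiotensin 2 receptor gene, had 52.6 CPM in members and 18.2 CPM in other dorsal cells (log2 1.53), and 26.9 CPM in ventral cells meeting the rule and 4.62 CPM in other ventral cells (log2 2.54). Foxf1 had 10.5 CPM in ventral cells meeting the rule and 2.80 CPM in other ventral cells (log2 1.91), while Tbx4 had 0 UMIs in those 128 cells. Cemip, higher in dorsal members, was lower in ventral cells meeting the rule, at 73.9 CPM against 150 CPM in other ventral cells (log2 -1.02).

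With the mesenchymal profile asked of both sides, Cdo1 stood at 15.7 CPM in ventral mesenchymal cells meeting the rule and 13.4 CPM in other ventral mesenchymal cells (log2 0.23, -0.35 to 0.75), so its direction in the ventral library depends on the comparison cells. Of 5511 genes, 66 were 2-fold higher (1.2%) and 96 lower (1.74%) in this comparison. Fst, the gene of the activin-binding protein follistatin, had 269 and 81.0 CPM there (log2 1.73, 1.60 to 1.86). Set directly against the ventral cells meeting the rule, the dorsal members had 312 of 5717 genes 2-fold higher (5.46%) and 338 lower (5.91%), a comparison in which domain and library cannot be told apart.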

How the data were processed

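The deposited files hold whole-number UMI counts per gene and barcode for 1 dorsal and 1 ventral library, not normalized. The authors used Cell Ranger 3.0.2 and mm10, per the submitters' processing notes; alignment settings and annotation release were not given in the sources used here. In total the dorsal library holds 246920028 UMIs and the ventral one 264822916 UMIs over 28692 genes. Called cells had at least 8000 UMIs and at most 20% mitochondrial UMIs. Counts were summed over the cells of a group and given as CPM with exact Poisson intervals, ratios with conditional binomial intervals and shares with exact Clopper-Pearson intervals. These cover counting error only, and the ratio procedure was tested on simulated data. Ratios were compared for genes at 20 CPM or more in either sum, and 2-fold marks a gene as apart. Shares were also taken after thinning each cell to 8000 UMIs, with no called cell left out.

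Clusters came from 2000 variable genes without the rule genes, 30 principal components, 15 neighbours and resolution 1.0 (scanpy 1.11.5, numpy 2.4.6, Python 3.11.15), and TMM factors from edgeR 4.0.16. Names such as macrophage-like come from fixed marker lists. Scrublet marked 0% of dorsal barcodes by its own threshold, so the highest-scoring barcodes, as many as its expected rate gives, were called likely doublets (645 of the called cells) and kept unless stated.

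The cells and the 38 gene lists were chosen with earlier results of these data known. A rule set which genes could be named: the 15 highest and 10 lowest ratios over other dorsal cells, 10 each over mesenchymal cells, 6 and 4 over each nearest group, up to 4 of every list, and the rule genes with Cdo1. It was not followed in full, and some genes that met it, such as Gsta3, Fam110c and Kng2, are not named. Cxcl13 against the Tnfsf8 and Il33 cells, and Omd against the cells left out for cartilage collagens, were not among the 4 lowest. Genes named between clusters, between subclusters, in the ventral library and some others were chosen after their values were seen. Alternatives covered the UMI, mitochondrial and CPM limits, the rule itself, doublets, sex of cells, scaling and cluster.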

Additional observations from a re-analysis of the deposited data

Results flagged for a closer look

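Cdo1, Cemip and Ism1 were higher in the dorsal cells of the group than in other dorsal cells, with log2 ratios of 2.17, 1.56 and 1.59, and lower in ventral cells meeting the same rule than in other ventral cells. The ventral log2 ratios were -0.17 for Cdo1, -1.02 for Cemip and -0.66 for Ism1. The counting interval of Cdo1 in the ventral library, -0.59 to 0.21, includes 0, and with the mesenchymal profile asked of both sides its ventral log2 ratio was 0.23. Each domain is 1 library, so the difference between the domains was not tested.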

How the results depend on the processing

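No paired analysis was possible because each domain has 1 library and no test was run. Of the values recomputed, 62 stayed within their limits and 33 moved. The limits were a fixed fold for gene counts and the main counting interval for shares and the Cdo1 ratio. A change of direction was scored for the Cdo1 ratio alone, which kept its sign. The balance of genes higher and lower against mesenchymal cells changed side in some settings, as given above. The Cdo1 log2 ratio of members over other dorsal cells was 2.21 at a minimum of 12000 UMIs, 1.80 with all 3 genes required, 2.24 with 2 UMIs each, 2.35 with the rule on thinned cells, 2.25 without the cartilage clause, 2.31 without likely doublets, 2.25 in Xist cells, 2.27 in Y-linked cells, 2.28 with TMM and 1.98 as a mean of per-cell CPM. The share of dorsal cells was 3.59% with all 3 genes, 7.88% with 2 UMIs each, 8.98% on thinned cells and 17.7% without the cartilage clause, and the ventral share 0.0188%, 0.188% and 0.178% under the first 3 of these. Against other dorsal cells, genes higher and lower numbered 125 and 177 on thinned cells and 119 and 376 at 5 CPM. Against mesenchymal cells they numbered 119 and 103, and 156 and 128. There, genes lower numbered 83 with all 3 genes, 87 with 2 UMIs each, 73 without doublets, 69 in Xist cells and 76 by per-cell mean. Alternatives chosen after seeing the data were the mesenchymal profile asked of members too, the removal of shared barcodes, and members of clusters 4 and 5 alone, which gave 120 higher, 219 lower and a Cdo1 ratio of 2.66. The cause of these moves was not tested. The share meeting the rule on thinned cells, 8.98% against 15.8% as reported, shows how far membership depends on depth.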
